A study of Mus musculus with 3 samples.

Results

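Lactoferrin and lipocalin-2, encoded by Ltf and Lcn2, are the 2 members described here, of 32287 features counted in single cells of the mouse esophageal culture PC. They were chosen by name with measured values of this culture known, so their levels, their variation and the genes that go with them are given as a description with no test. The cells came from esophageal organoids of mice with Trp53 floxed/floxed alleles. Trp53 was removed with Ad-Cre-EGFP, an adenovirus that carries Cre recombinase and a green fluorescent protein, and Cdkn2a was then knocked out with CRISPR/Cas9. Trp53 encodes the tumour suppressor p53, and Cdkn2a encodes cell cycle inhibitors. The cells also expressed Cas9 constitutively, were given a library of genetic barcodes by lipofection, were grown for 3 passages in medium with serum and were sorted for life and for red fluorescent protein (RFP). Every cell analysed shares these alleles and agents, there is no unmodified control, and neither the age of the mice nor the number of animals or clones behind the culture is stated in the labels. The labels list 3 libraries of PC (gene expression, barcodes, scars). The values form a single matrix and count as 1 sample, so the spread between cultures is unknown for every difference given here.

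Lactoferrin is an iron-binding glycoprotein of the transferrin family, secreted into milk, tears, saliva and airway fluid and stored in the secondary granules of neutrophils. Lipocalin-2, also called neutrophil gelatinase-associated lipocalin, is a small secreted protein with a cup-shaped fold that binds bacterial siderophores, the molecules with which bacteria take up iron. Both keep iron from microbes, both are made by epithelia as well as by neutrophils, and Lcn2 is a well-known target of NF-kB together with its cofactor IκBζ (gene Nfkbiz) and of C/EBP factors after IL-1 or IL-17 signalling. In stratified squamous epithelium Lcn2 is induced in inflammation and wounding.

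Because the 2 transcripts were often found in the same cells, the stretches upstream of their RefSeq start sites are shown, on GRCm38.p6. Ltf (ENSMUSG00000032496) lies on chromosome 9 from 111019271 to 111042767 on the plus strand with 17 exons in its protein-coding transcript with the most exons (GENCODE M21), and Lcn2 (ENSMUSG00000026822) on chromosome 2 from 32384633 to 32388252 on the minus strand with 7 exons. No other annotated gene overlaps either of them. The Ltf stretch is chr9:111019042-111019270 on the plus strand (229 bases). The Lcn2 stretch is chr2:32387798-32387989 on the minus strand (192 bases). It lies inside the GENCODE span of Lcn2, which begins at 32388252 on this strand, so it is upstream of the RefSeq start only. The 21 bases nearest the RefSeq start of Ltf and the 58 nearest that of Lcn2 are annotated as UTR in GENCODE and are left out. Other GENCODE exons were not looked for in the stretches. Capitals mark matches to 2 patterns searched on both strands of the 250 bases before each start, GGG and CC with any 5 bases between them (NF-kB type) and TTGCNNAA (C/EBP type).
Ltf: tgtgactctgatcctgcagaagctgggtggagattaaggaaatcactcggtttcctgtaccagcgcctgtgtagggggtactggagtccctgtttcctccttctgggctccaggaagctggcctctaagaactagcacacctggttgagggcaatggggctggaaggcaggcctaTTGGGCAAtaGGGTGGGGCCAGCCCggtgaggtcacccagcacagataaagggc
Lcn2: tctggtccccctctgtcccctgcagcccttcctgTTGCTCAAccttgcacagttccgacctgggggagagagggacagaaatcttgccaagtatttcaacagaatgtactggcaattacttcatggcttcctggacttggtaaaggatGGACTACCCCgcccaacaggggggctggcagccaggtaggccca
In Ltf the C/EBP-type letters stand 75 to 68 bases before the RefSeq start, and 4 overlapping NF-kB-type matches, one of them the same letters read on both strands, span 65 to 51 bases before it. In Lcn2 the C/EBP-type letters stand 216 to 209 bases and the NF-kB-type letters 102 to 93 bases before the start. The NF-kB-type pattern occurred in 46.0% of 32536 promoter windows of this length and the C/EBP-type pattern in 9.57%. Neither window held the estrogen response element type, GGTCA and TGACC with any 3 bases between them, found in 0.0645% of windows, or TATAAA, found in 12.3%. A match is a run of letters, not a measured binding site.

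The matrix held 18116 barcodes, and the labels state about 20000 recovered cells. Cells with at least 500 genes, at least 1000 UMIs (unique molecules counted) and at most 20% mitochondrial UMIs were kept, which left 14925 cells with a median of 2955 UMIs. Over all kept cells the squamous basal marker Krt14 stood at 1145 CPM (UMIs of the gene per 1000000 UMIs). The basal markers Krt5, Trp63 and Sox2 stood at 628, 141 and 66.1 CPM. Another basal marker, Krt15, was low, with 64 UMIs in the 11695 cells with neither transcript (thinned as described below). The esophageal differentiation keratin Krt4 had 33 UMIs in all kept cells. Other differentiated squamous markers were found in the cells with neither transcript: Krt6a had 5820 UMIs, Sprr1b 1588 and Krt10 665. None of the 10 immune or 6 endothelial markers reached 10 CPM in cells with or without the 2 transcripts.

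Lcn2 and Ltf both came from a minority of cells. In kept cells 20908 genes had a UMI. Lcn2 had 12813 UMIs in kept cells, 282 CPM (95% Poisson interval 277 to 287), and ranked 495 among all features. Ltf had 2490 UMIs, 54.8 CPM (52.7 to 57.0), and ranked 3129. Their neighbours by total were Emp2 (12834 UMIs) and Trir (12770 UMIs) for Lcn2, and Syne2 (2492 UMIs) and Galnt2 (2489 UMIs) for Ltf. All intervals cover counting error only. A 3' count has no length factor, but capture differs between genes, so a CPM compares a gene across cells and not one gene with the other.

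An Lcn2 UMI was found in 2049 cells, 13.7% (exact binomial 95% interval 13.2% to 14.3%), and an Ltf UMI in 773 cells, 5.18% (4.83% to 5.55%). After each cell was thinned at random to 1500 UMIs, which 13281 cells reached, the shares were 10.7% (10.2% to 11.3%) for Lcn2 and 3.86% (3.53% to 4.20%) for Ltf. Among cells with the transcript, 38.5% had a single Lcn2 UMI and 43.3% a single Ltf UMI. At the other end, 332 cells with 10 or more Lcn2 UMIs, 2.22% of cells, held 65.7% of all Lcn2 UMIs, and 45 cells with 10 or more Ltf UMIs held 28.1% of Ltf. The 1% of cells highest in each gene, 150 cells, held 45.4% of Lcn2 and 55.0% of Ltf. The highest cell for Lcn2 had 114 of its 3782 UMIs from the gene, 3.01%, and the highest for Ltf 32 of 3031, 1.06%. Over thinned cells the variance-to-mean ratio was 10.99 for Lcn2, rank 9 among the 2624 genes whose mean reached 0.1 UMIs (median ratio 1.05). It was 5.30 for Ltf, whose mean of 0.0962 UMIs was just under that minimum. The ratio moves with depth: thinned to 1000 UMIs and without thinning it was 7.54 and 24.9 for Lcn2, and 3.95 and 7.55 for Ltf.

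**Figure D1:**
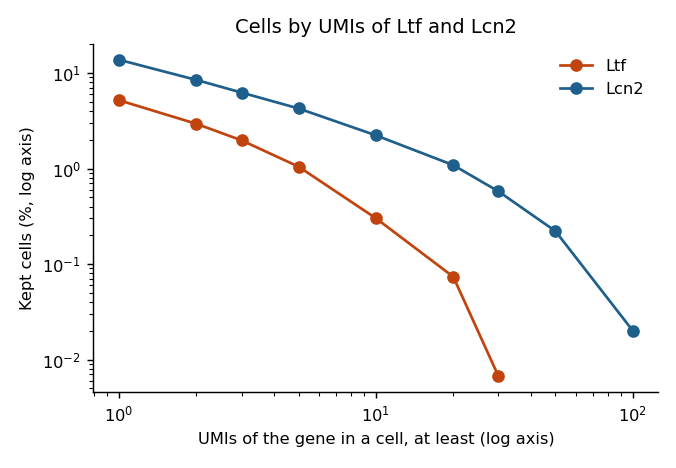
Share of the 14925 kept cells (vertical, percent, log axis) with at least the given number of UMIs of Ltf or Lcn2 (horizontal, log axis), before thinning. The Ltf curve falls from 5.18% at 1 UMI to 0.302% at 10, and the Lcn2 curve from 13.7% to 2.22%; the highest cells had 32 and 114 UMIs.

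Depth separated the 2 genes. When cells were ordered by total UMIs into 4 equal groups, the Ltf level was 103, 74.98, 51.2 and 30.4 CPM from the shallowest group (median 1566 UMIs) to the deepest (median 4437 UMIs), while Lcn2 was at 270.4, 265, 267 and 305 CPM. The share of cells with an Ltf UMI was 5.04%, 5.69%, 4.77% and 5.22% in the same order, and with an Lcn2 UMI 10.5%, 13.6%, 13.7% and 17.1%. Depth therefore went with a lower Ltf CPM at a nearly level share of cells, and with a higher share of cells with Lcn2 at a nearly level CPM.

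The 2 transcripts were found together far more often than their shares multiply to. Of the 13281 thinned cells, 349 had both, 163 Ltf only, 1074 Lcn2 only and 11695 neither. Both were found in 2.63% of cells (2.36% to 2.91%), while the product of the 2 shares is 0.413%. Lcn2 was found in 68.2% (63.9% to 72.2%) of cells with Ltf and in 8.41% (7.94% to 8.91%) of cells without it, and Ltf in 24.5% (22.3% to 26.8%) of cells with Lcn2 and in 1.37% (1.17% to 1.60%) of cells without it. The odds ratio was 23.3. Most cells with Ltf thus had Lcn2, and most cells with Lcn2 had no Ltf UMI at this depth.

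The share of cells with Ltf climbed with the Lcn2 count. It was 1.37% of cells with no Lcn2 UMI, 10.6% with 1, 18.6% with 2, 32.2% with 3 to 5, 44.97% with 6 to 10 and 62.7% (53.6% to 71.1%) with 11 to 51. In reverse, Lcn2 was found in 60.1% of cells with 1 Ltf UMI, 76.2% with 2, 73.0% with 3 to 5, 82.4% with 6 to 10 and 13 of 15 cells with 11 to 20; the intervals of these last 4 shares overlap. Across the 13281 thinned cells Pearson's r of log counts was 0.48 and Spearman's rho 0.39. Among the 349 cells with both they were 0.28 and 0.22. The cells share 1 library and a fixed total, and the correlations are descriptions.

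**Figure D2:**
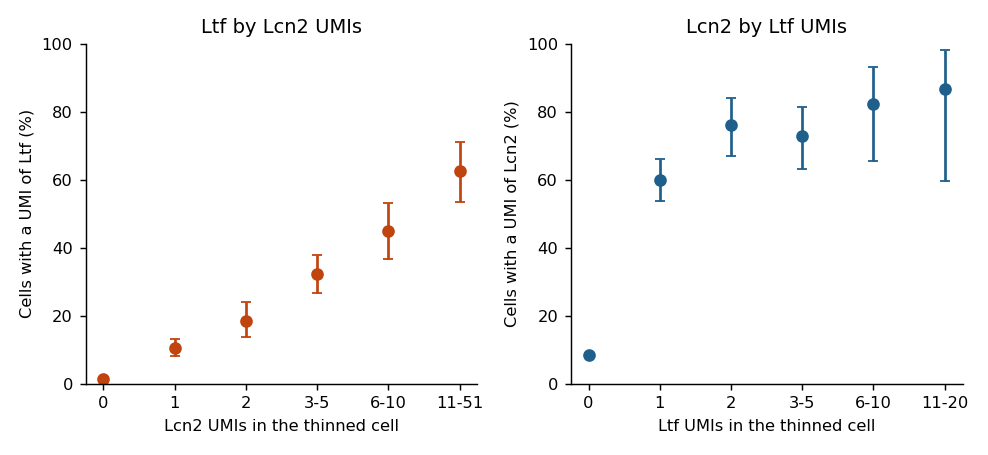
Share of thinned cells (vertical, percent, with exact binomial 95% intervals) with a UMI of one gene, by the number of UMIs of the other (horizontal). Left, Ltf rises over all 6 bins of Lcn2, from 1.37% to 62.7%; right, Lcn2 steps from 8.41% in cells without Ltf to 60.1% with 1 Ltf UMI.

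Clustering left out the 2 genes and the lists below from defence proteins to glandular epithelium. It gave 11 clusters, and most of both transcripts fell in 1 of them. Other cell type markers were not left out, so cluster names and marker differences by cluster are not independent of the clustering. Cluster 5 (1223 cells, 8.19% of cells) was led by Gabrp, a GABA-A receptor subunit found in glandular and other epithelia, the alarmin cytokine Il33 and the retinaldehyde dehydrogenase Aldh1a3. It met no name from the marker lists: 4 of 8 simple epithelial markers were raised in it, with only Krt19 among its 10 leading genes. Cluster 5 held 79.4% of Ltf UMIs at 503 CPM (481 to 526) and 63.4% of Lcn2 UMIs at 2070.0 CPM (2025 to 2115). At the thinned depth 30.6% of its cells had Ltf, 52.4% had Lcn2 and 22.4% had both, and they made up 75.1% of all cells with both.

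The other clusters ordered differently for the 2 genes. For Lcn2, clusters 10 (117 cells, led by Ly6c1, Krt7 and Pate14) and 11 (103 interferon-responding-like cells, led by Ifit3b, Ifit3 and Rsad2) came next at 821 and 814 CPM, but 5 cells held 76.7% and 73.2% of their Lcn2 UMIs. They were followed by cluster 7 (Sncg, Cadps2, Lgals7) at 218 CPM, hypoxic-like cluster 9 (Ero1l, Ndrg1, Arl4a) at 121 CPM, cluster 2 (Krt7, Sorbs2) at 117 CPM, cycling-like cluster 3 (Ccna2, Nusap1, Ube2c) and cluster 1 (Prl2c3, Prl2c2, Sprr1b) at 109 CPM each, and cluster 8 (Prl2c5, Sncg, Ptn) at 90.3 CPM. Clusters 6 (Zfpm2, Aff2, Immp2l; median 1185 UMIs and 10.4% mitochondrial UMIs) and 4 (Grem1, Ccn5, Cacna1c) were lowest at 46.8 and 39.6 CPM. Neighbours in this order had overlapping intervals except below clusters 5, 11, 7 and 8.

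For Ltf, clusters 9, 11, 7 and 10 followed cluster 5 at 64.0, 46.1, 44.1 and 43.8 CPM with overlapping intervals. Their Ltf UMIs numbered 28, 15, 39 and 19, and 5 cells held 64.3%, 100%, 46.2% and 78.9% of them. Clusters 3, 6, 8, 2 and 1 came next at 17.6, 14.4, 14.02, 10.7 and 9.69 CPM, again each overlapping its neighbour, and cluster 4 was lowest at 2.94 CPM (1.80 to 4.55). Cluster 5 stood 171-fold above cluster 4 in Ltf and 52.3-fold in Lcn2. In cluster 4, which was led by genes of connective tissue such as Grem1 and had Vim among its 10 leading genes, 0.467% of thinned cells had an Ltf UMI and 1.56% an Lcn2 UMI, at a median of 3362 UMIs before thinning. The Lcn2 shares of clusters 1, 2 and 3 were 7.53%, 7.28% and 6.33%, and the median of cluster 5 was 3138 UMIs.

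Lcn2 UMIs per Ltf UMI were 5.15 (4.93 to 5.37) over all kept cells. The ratio was 4.11 (3.91 to 4.32) in cluster 5, 11.3 (9.54 to 13.3) in cluster 1, 10.9 (8.63 to 13.96) in cluster 2, 13.5 (8.54 to 22.4) in cluster 4 and 1.89 (1.18 to 3.11) in cluster 9. The interval of cluster 5 does not overlap those of clusters 1, 2, 4 or 9. These intervals do not cover the uneven spread of UMIs over cells. In cluster 4, 5 cells held 55% of 20 Ltf UMIs and 62.1% of 269 Lcn2 UMIs. In cluster 9, 5 cells held 64.3% of 28 Ltf UMIs and 49.1% of 53 Lcn2 UMIs. The part of free RNA in these values was not tested. Inside cluster 5 the odds ratio of co-detection was 3.58 and r was 0.39, and over all other cells together they were 20.2 and 0.30.

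**Figure D3:**
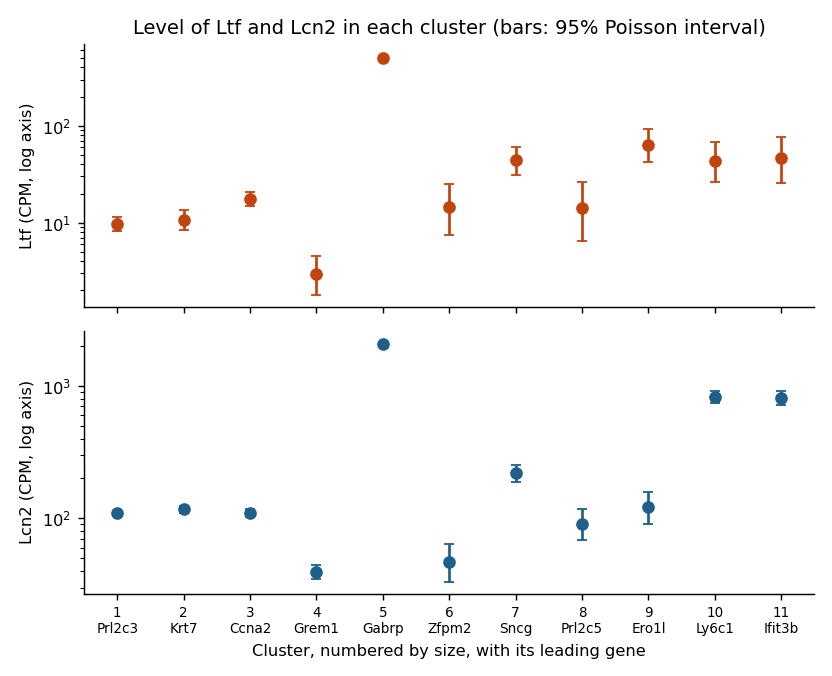
Level of Ltf (top) and Lcn2 (bottom) in each of 11 clusters, in CPM on log axes, with 95% Poisson intervals; clusters are numbered by size and named by their leading gene. Cluster 5 is highest for both (503 and 2070.0 CPM), cluster 4 lowest for both (2.94 and 39.6 CPM), and clusters 10 and 11 follow it for Lcn2 (821 and 814 CPM).

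A finer clustering (resolution 1.0 in place of 0.6) divided this group. The cluster highest in Ltf then had 1470 cells, a median of 2041 UMIs, 317 CPM Ltf (298 to 336) and 655 CPM Lcn2 (628 to 683), and held 332 of the cells of cluster 5. The cluster highest in Lcn2 had 1333 cells, a median of 3290 UMIs, 234 CPM Ltf (220 to 248) and 1551 CPM Lcn2 (1515 to 1587), and held 888 of them. Ltf UMIs were then split 42.8% and 43.3% between them, and Lcn2 UMIs 17.2% and 55.8%. The 2 clusters differ in depth as well as in the 2 genes.

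The genes whose counts followed the members most closely were largely the same for both. Among 4521 genes with a UMI in at least 5% of thinned cells, the 12 with the highest r with Ltf and the 12 with the highest r with Lcn2 shared 10. For Ltf these were led by Gsto1 (r = 0.34), a glutathione transferase, Gabrp (0.33), Ly6d (0.31), a surface protein of squamous epithelium, and Il33 (0.27), followed by Ecm1, Sat1, Tnfrsf11b, Krt19, Cbr2, Vnn1, Cxcl5 and Gsta4 (0.26 down to 0.17). For Lcn2 they were led by Gabrp (0.41), the neutrophil-attracting chemokine Cxcl5 (0.32), Gsto1 (0.32) and Il33 (0.31), followed by Ly6d, Sat1, Ecm1, Wfdc2, Cbr2, Vnn1, Krt19 and Tnfaip2 (0.27 down to 0.22). The median r over all 4521 genes was -0.003 for Ltf and -0.004 for Lcn2, and 9 genes reached 0.2 with Ltf and 16 with Lcn2. The lowest r values belonged to the tropomyosin gene Tpm1 (-0.18 with Ltf and -0.20 with Lcn2), Igfbp7 (-0.17 and -0.12), the actin-binding Tmsb4x (-0.15 and -0.19), the galectin gene Lgals1 (-0.14 with each), the actin gene Actb (-0.13 and -0.15) and the caldesmon gene Cald1 (-0.12 and -0.16).

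The clusters were built from these same cells, and inside cluster 5 the values differed between the 2 members: 5 of the 12 genes for Ltf and 4 of the 12 for Lcn2 were again among the 12 highest there. There Lcn2 followed Cxcl5 (r = 0.45) and Wfdc2 (0.38), a secreted protease inhibitor, against 0.17 and 0.15 for Ltf. Ly6d had r = 0.20 with Ltf and -0.10 with Lcn2, and Gsto1 0.29 and 0.14. Igfbp7, a secreted binding protein of insulin-like growth factors, had -0.11 with Ltf and 0.21 with Lcn2. In the 4 sets of cells, Cxcl5 stood at 6168 CPM in cells with both, 3358 with Lcn2 only, 1640.1 with Ltf only and 1255 with neither. Ly6d stood at 4812 CPM with both, 5820.0 with Ltf only, 2167 with Lcn2 only and 712 with neither. Gabrp stood at 684, 311, 252 and 26.1 CPM in cells with both, Ltf only, Lcn2 only and neither.

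**Figure D4:**
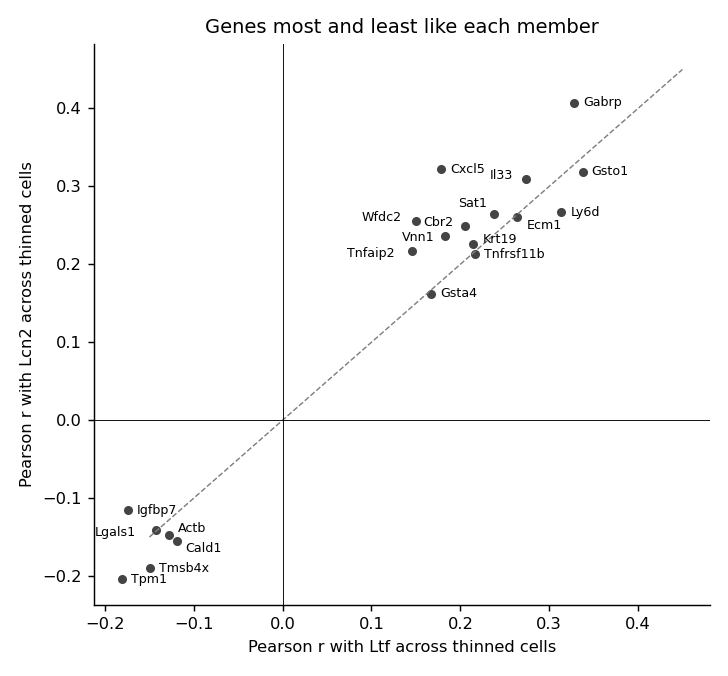
Pearson's r with Ltf (horizontal) against r with Lcn2 (vertical) over 13281 thinned cells for the genes among the 12 highest or 5 lowest for either member; the dashed line marks equal values. Cxcl5, Wfdc2, Gabrp and Tnfaip2 lie above the line, Ly6d and Gsto1 below it.

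Cells with both transcripts were then compared with cells with neither, over every gene, to describe what else these cells held. A gene was called higher or lower at a ratio of at least 2, at least 10 CPM in the higher set and Poisson intervals that did not overlap. This is a rule of size within 1 sample and not a test. Of 8983 genes with 10 CPM in either set, 445 were called higher (4.95%) and 428 lower (4.76%), with a median ratio of 0.96. Because 349 cells were set against 11695, a gene seen mostly in the small set passes the 10 CPM minimum only there. With that minimum taken over all thinned cells instead, 280 of 8452 genes were called higher. The list counts below describe these sets. Where that minimum moves the number called in a list, the second count is given or the genes that drop out are named. No second count was made inside or outside cluster 5, or between cells with 1 of the transcripts. A gene that enters only through the cells with both could hardly be called anything but higher. The cells with both also had more mitochondrial UMIs, a median of 4.06% against 2.64%, and fewer UMIs before thinning, 2884 against 3136. What part these differences have in the ratios was not tested.

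Of 26 other secreted defence proteins of epithelium in the matrix, 12 had 10 CPM, 9 of them called higher and 2 lower (median ratio 3.07). With 10 CPM over all thinned cells, 8 entered, 5 were called higher (Slpi, Wfdc2, C3, Cp and Pglyrp1) and 2 lower. Pglyrp1, which binds bacterial cell walls, stood at 264 CPM (221 to 311) with both and 25.7 (23.3 to 28.1) with neither, 10.3-fold higher, with UMIs in 89 of the 349 cells. Slpi, an inhibitor of neutrophil elastase, was 3.52-fold higher (380.1 against 108 CPM), Wfdc2 2.61-fold (4243 against 1622 CPM), complement C3 2.58-fold (101 against 39.3 CPM) and ceruloplasmin, Cp, a copper-carrying ferroxidase, 2.13-fold (648 against 304 CPM). Pigr, the receptor that carries IgA across epithelia, had 33 UMIs in 29 cells with both and 4 UMIs in all cells with neither (ratio 276, interval 98.3 to 1074). Sftpd, a lectin of mucosal surfaces, had 20 and 4 UMIs (ratio 168, 56.1 to 674). The acute-phase gene Saa3 had 55 and 8 UMIs, but all 55 came from 5 cells and 28 of them from 1. The 2 genes called lower were Wfdc18, at 1811 CPM with both and 6774 with neither (3.74-fold lower), and the beta-defensin Defb1, at 22.9 and 65.0 CPM (2.83-fold lower).

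Of 26 regulators and feedback genes of NF-kB and C/EBP signalling, 23 had 10 CPM, 9 were called higher and none lower (median ratio 1.77). Tnfaip2 was 4.99-fold higher (340.0 against 68.2 CPM), the stress-induced factor Atf3 4.41-fold (57.3 against 13.0 CPM), Nfkbiz 3.87-fold (250.2, interval 209 to 297, against 64.7 CPM, 61.0 to 68.6) and the epithelial ETS factor Elf3 3.23-fold (95.5 against 29.6 CPM). The other 5 called were Cebpa (28.7 against 9.52 CPM, 3.01-fold), the NF-kB inhibitor Nfkbib (49.7 against 22.2 CPM, 2.24-fold), Zc3h12a, Junb and Ehf. Not called were Nfkb1, which had a ratio of 1.88 (2.47 and called higher outside cluster 5), Rela with 1.21, Relb with 0.748, Nfkbia with 1.37, Tnfaip3 with 0.813, Cebpb with 1.77 and Cebpd with 1.77 (2.54 and called higher outside cluster 5). Cebpe, which drives Ltf and Lcn2 in granulocyte precursors, had no UMI in any kept cell.

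Of 22 inflammatory ligands, 15 had 10 CPM, 9 were called higher and 2 lower (median ratio 3.81). The neutrophil growth factor Csf3 stood at 162 CPM (130 to 201) with both and 14.8 (13.0 to 16.7) with neither, 10.998-fold higher. The related Csf2 was 9.85-fold higher (185 against 18.8 CPM), Ccl20, which attracts lymphocytes and dendritic cells, 8.51-fold (149 against 17.5 CPM), and Cxcl2, a neutrophil chemokine, 7.53-fold (258 against 34.3 CPM). Cxcl3, Il1a, Cxcl5, Tnf and Cxcl1 were called at 5.55, 4.96, 4.91, 3.81 and 3.22-fold. The monocyte chemokines went the other way: Ccl7 was 5.41-fold lower (43.9 against 238 CPM) and Ccl2 2.20-fold lower (227 against 499.99 CPM).

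Of 22 receptors for signals that induce the 2 genes, 15 had 10 CPM, 2 were called higher and 1 lower (median ratio 1.02). Cd14, the co-receptor for bacterial lipopolysaccharide, was 5.72-fold higher (197 against 34.4 CPM) and Il10rb 2.57-fold (43.9 against 17.1 CPM). Il1rl1, the IL-33 receptor, had 1 UMI with both and 362 with neither (10.8-fold lower as counted, interval 1.93 to 428; 3.601-fold with the 1 UMI set to 3). The IL-17 receptor gene Il17ra had 0 UMIs with both and 47 with neither, and the IL-1 receptor Il1r1 9 and 147 UMIs (ratio 2.05, 0.920 to 4.002).

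Of 14 genes for receptors and partners of lactoferrin or lipocalin-2 and proteins linked to them, 5 had 10 CPM and none was called higher. The 1 called lower was Timp1, an inhibitor of the MMP-9 that lipocalin-2 binds, 3.21-fold (21.01 against 67.5 CPM). The lactoferrin receptor Lrp1 had a ratio of 1.12 (0.706 to 1.70; 2.33 and called higher outside cluster 5) and nucleolin, Ncl, 0.650. The lipocalin-2 receptor Slc22a17 had 0 UMIs in cells with both and 62 in cells with neither, and 153 in all kept cells; Lrp2 had 5 in all kept cells and Mc4r 0.

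Of 26 genes of iron handling 15 had 10 CPM and 1 was called higher (median ratio 0.856): the metalloreductase Steap4 at 51.6 CPM (34.0 to 75.04) with both and 4.73 (3.77 to 5.87) with neither, 10.9-fold higher. With 10 CPM over all thinned cells 14 entered and none was called. The ferritin chains Fth1 (ratio 1.68) and Ftl1 (1.25), the transferrin receptor Tfrc (1.49, 1.02 to 2.12) and the iron exporter Slc40a1 (0.621, 0.329 to 1.07) were not called. Of 18 other lipocalins and related carriers 4 had 10 CPM and 2 were called higher, Orm1 (8 and 23 UMIs, ratio 11.7, 4.51 to 27.0) and Fabp5 (2.11-fold, 89.8 against 42.5 CPM; the 1 called of 3 with 10 CPM over all thinned cells), while 9 of the 18 had no UMI in either set.

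Of 25 genes of surface and glandular secretory epithelium, 7 had 10 CPM and 6 were called higher, among them Ceacam1 (8.19-fold, 42.0 against 5.13 CPM), Cldn3 (6.31-fold, 30.6 against 4.85 CPM) and the membrane mucin Muc4, with 16 UMIs in 13 cells with both and 1 UMI with neither (ratio 536 as counted, 83.3 to 22484; 179 with the 1 UMI set to 3). These 3 genes entered only through the cells with both, and with 10 CPM over all thinned cells 2 of the 25 entered, Cldn4 (2.01-fold) and Cldn7 (2.58-fold), both called higher. The secreted mucin Muc5b, the trefoil factors Tff1 to Tff3 and Scgb1a1 had no UMI in either set. Of 8 simple epithelial markers 7 had 10 CPM and 6 were called higher, Krt19 7.62-fold (429.8 against 56.4 CPM), Krt18 2.77-fold (500.5 against 181 CPM) and Krt8 2.38-fold (250.2 against 105 CPM); with 10 CPM over all thinned cells 5 entered and 4 were called higher, these 3 and Cldn4. Muc1, in both lists, had 6 and 2 UMIs.

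All 8 basal markers had 10 CPM. Krt15 was called higher (53.5 against 3.65 CPM, 14.7-fold, with 28 UMIs in 12 cells), and the hemidesmosome genes Col17a1 and Itgb4 lower, 2.76-fold (130 against 359 CPM) and 2.32-fold (42.0 against 97.3 CPM). Krt5 (1.41), Krt14 (1.06) and Trp63 (0.975) had ratios nearer to 1. Of 12 differentiated squamous markers 5 had 10 CPM. Krt13, the keratin of differentiating esophageal epithelium, was 12.7-fold higher (47.8 against 3.76 CPM, 25 UMIs in 12 cells) and the stress keratin Krt6a 2.20-fold, while the envelope protein gene Sprr1b was 2.37-fold lower (38.2 against 90.5 CPM). Krt15 and Krt13 entered only through the cells with both.

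Of 10 cycling markers 9 had 10 CPM, 5 were called lower and none higher over all cells, with Mki67 3.93-fold lower (13.4 against 52.6 CPM) and Top2a 2.89-fold lower (42.0 against 122 CPM). Of 12 mesenchymal markers 6 had 10 CPM and 5 were called lower. Fn1 was 6.99-fold lower (149 against 1042 CPM), Vim had 2 UMIs with both and 3095 with neither (46.2-fold lower as counted, interval 12.8 to 381; 30.8-fold with the 2 UMIs set to 3), and Col1a1 had 0 and 900 UMIs (at least 8.95-fold lower, with 3 UMIs over the set as the limit). Of 8 interferon-responding markers 6 had 10 CPM and 3 were called higher, Ifit1 (3.01-fold), Ifit3 (2.91-fold) and Oasl2 (2.19-fold). Of 8 hypoxic markers 7 had 10 CPM and 1, Egln3, was called higher (3.67-fold). The 4 Y-linked genes were not called. Neutrophils store both proteins, so their markers were counted: of 15, none reached 10 CPM, 12 had no UMI in the 349 cells with both, and the other 3 had 8 UMIs in all (S100a9 5, Itgam 2, S100a8 1). Ptprc, Mpo, Elane, Ngp and Csf3r had no UMI in those cells. The summed neutrophil list was at 15.3 CPM (6.60 to 30.1) with both, 8.18 with Ltf only, 16.8 with Lcn2 only and 1.77 with neither. In cells with Lcn2 only, S100a9 reached 12.4 CPM (20 UMIs) and was called higher than in cells with neither (12.1-fold, 6.08 to 24.3).

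**Figure D5:**
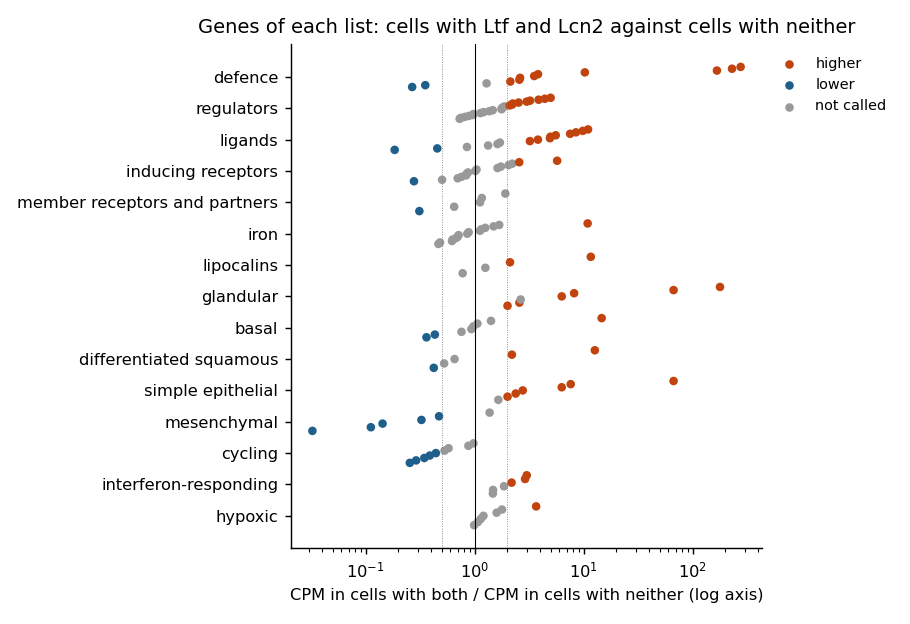
Ratio of CPM in 349 cells with both transcripts to CPM in 11695 cells with neither (horizontal, log axis) for each gene of 15 lists with 10 CPM in either set; a set with under 3 UMIs counts as 3 UMIs. Dotted lines mark 2-fold. Ligands reach 10.998-fold for Csf3, and 5 of 6 mesenchymal and 5 of 9 cycling genes are called lower. Steap4 (10.9-fold), the only iron gene called, passed 10 CPM only through the cells with both.

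Within cluster 5 alone, 262 cells with both were set against 460 with neither, and fewer genes were called: 1.39% of 8961 higher and 0.368% lower. Of the ligands 7 of 15 were called higher there, among them Ccl20 (9.10-fold, 57 against 11 UMIs), Cxcl2 (4.43-fold), Csf3 (4.06-fold), Cxcl5 (2.75-fold) and Csf2 (2.19-fold). Of the regulators Nfkbiz (2.22-fold) and Atf3 (2.58-fold) were among 3 of 23. Of the defence list 6 of 13 were called higher, among them Pglyrp1 (3.20-fold), and Wfdc18 was called lower there too. Pigr (31 UMIs against 1), Sftpd (17 against 2) and Saa3 (6 against 0), also called, passed the 10 CPM minimum only through the cells with both. By the rule used, they could hardly be called anything but higher. Steap4 was 2.93-fold higher. Krt13 and Krt15 were not called inside the cluster (ratios 0.896 and 2.05), and all 25 and 28 of their UMIs in cells with both lay in cluster 5. Outside cluster 5, 87 cells with both were set against 11235, and 2.91% of 9160 genes were called higher and 1.06% lower. There Csf3 (10.1-fold), Ccl20 (9.16-fold), Pglyrp1 (8.32-fold), Csf2 (5.91-fold), Cd14 (5.35-fold) and Nfkbiz (3.19-fold) were called higher as well. These calls rest on few UMIs in the 87 cells with both, such as 21 for Ccl20, 25 for Pglyrp1, 23 for Cd14 and 26 for Nfkbiz. The cycling markers did not keep their direction: outside cluster 5, 2 of 9 were called higher (Nusap1 3.39-fold, Cdk1 2.14-fold) and none lower, and inside it none of 5 was called. Of the mesenchymal markers Vim, Fn1 and Col1a1 were called lower outside cluster 5, and neither of the 2 with 10 CPM was called inside it.

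Cells with 1 of the 2 transcripts differed from each other, a comparison added after values had been seen. The 163 cells with Ltf only and the 1074 with Lcn2 only gave 1.37% of 8986 genes called higher and 0.634% lower with Ltf only. A cell without a UMI at 1500 UMIs may still hold the transcript. Among keratins of the lists, Krt13 was at 196 CPM with Ltf only and 10.6 with Lcn2 only (18.6-fold, interval 10.5 to 34.5, 48 UMIs in 14 cells), Krt14 at 2540 and 1035 CPM (2.45-fold), Krt6a at 1100.2 and 469.9 CPM (2.34-fold), Krt19 at 376 and 182 CPM (2.07-fold) and Krt10 at 73.6 and 32.9 CPM (2.24-fold), while Krt5 (ratio 1.956), Krt7 (1.18), Krt8 (0.982) and Krt18 (0.971) were not called. Egln3 was 6.59-fold higher (89.98 against 13.7 CPM) and Pglyrp1 2.34-fold. On the Lcn2 side lay 5 of 15 ligands and none the other way: Cxcl2 was at 28.6 CPM with Ltf only and 124 with Lcn2 only, Csf1 at 28.6 and 78.2, Ccl2 at 155 and 379, Cxcl16 at 94.1 and 226, and Cxcl5 as given above. Slpi (119 and 316 CPM), Irf1 (28.6 and 79.5 CPM) and the interferon-induced Isg15 (85.9 and 189 CPM) and Bst2 (143 and 381 CPM) were also lower with Ltf only. The cells with Ltf only were shallower, with a median of 2500.0 UMIs before thinning against 3138, and 58.9% of them lay in cluster 5 against 32.7% of those with Lcn2 only. The part of depth and of cluster in these ratios was not tested.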

How the data were processed

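Whole UMI counts per gene and cell barcode were deposited by the authors without normalization, written by Cell Ranger 8.0.1 per the file headers. The submitters' processing notes name mm10, Cell Ranger and Scanpy 1.8.2. Neither says which library fed the matrix, so it was treated as 1 sample, and the design's assumption that it was the gene expression library is not settled. The members, gene lists and tests were chosen with earlier results of these data known.

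CPM are UMIs per 1000000, summed over a set of cells, with exact 95% Poisson intervals. Thinning drew 1500 UMIs per cell, leaving out 1644 shallower cells. Ratios put a set with fewer than 3 UMIs at 3, except where given as counted. Leiden clusters (scanpy 1.11.5, 2000 variable genes, 30 components, 15 neighbours, resolution 0.6) left out 181 genes, the members and the lists from defence proteins to glandular epithelium. A "-like" name needed 3 markers raised and 2 among 10 leading genes, by a rule chosen once clusters had been inspected. Scrublet called 1 cell, too few to be a working call, so doublets were not removed. Named genes were the 12 highest and 5 lowest by r, up to 4 per list and direction, genes that check a cell type, and 3 leading genes per cluster (1 of cluster 2 is not reported here). A few more members of these lists were named after their values were seen. On simulated counts of 32287 genes, 3-fold higher genes were recovered in 100% and 3-fold lower genes in 75% of cases between cells with both and neither (81% and 45% between Ltf only and Lcn2 only), with 68 of 8591 (32 of 8797) unchanged genes called. These were Poisson counts of each set as a whole with no variation between cells, so calls that rest on few cells are not covered. Of 32287 feature IDs, 32158 matched GENCODE M21.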

Additional observations from a re-analysis of the deposited data

Results flagged for a closer look

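The barcodes that the filters removed are used in no comparison, and both transcripts appeared in them. Of 3191 removed barcodes (median 696 UMIs and 12.1% mitochondrial UMIs), 0.783% had an Ltf UMI (exact binomial 95% interval 0.508% to 1.15%) and 1.69% an Lcn2 UMI (1.27% to 2.20%). The levels were 15.8 CPM for Ltf and 45.2 CPM for Lcn2.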

How the results depend on the processing

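No paired analysis was possible because the 3 libraries in the labels form 1 matrix with no replicate. Of 116 values under alternatives, 72 stayed within the interval of the value reported (gene counts within 1.5 times), 44 moved and 0 reversed. For variance-to-mean ratios this was a fixed band, 4.82 to 5.83 for Ltf and 9.99 to 12.1 for Lcn2, and no counting interval. With all barcodes, every value from thinned cells equalled the one reported, as no added barcode entered those cells. Such values count among the 72 but could not move. CPM, shares, variance-to-mean ratios and gene counts have no direction to reverse. Ltf was at 48.4 CPM with at least 1000 genes and 2000 UMIs and 58.5 CPM without the 10% of cells with the highest Scrublet score, where Lcn2 was at 295 CPM; over all barcodes Lcn2 was at 271 CPM. The share of cells with both was 1.99%, 2.92% and 3.68% when thinned to 1000 UMIs, to 2000 UMIs and not at all, and r was then 0.43, 0.50 and 0.52. With at most 10% mitochondrial UMIs r was 0.46, as with another thinning seed, and rho was 0.39; r was 0.30 without cluster 5 and 0.39 within it, where the odds ratio was 3.58. Genes called higher and lower numbered 267 and 97 without cluster 5, 125 and 33 within it, 241 and 190 at a ratio of 3, and 210 and 156 at 50 CPM; 280 were called higher with 10 CPM over all thinned cells, against 445 and 428 as reported. The cluster highest in Lcn2 held 43.3% of Ltf UMIs at resolution 1.0 and 86.4% with all variable genes allowed. It held 55.8%, 59.1%, 65.9%, 68.1% and 71.5% of Lcn2 UMIs at resolution 1.0, at resolution 0.3, with another clustering seed, with 1000 variable genes and with all variable genes allowed. For the CPM, r and cluster shares the cause was not tested. The setting without cluster 6 and the one with 10 CPM over all thinned cells, and the odds ratios by cluster, were added after seeing the data. With 1 sample, no value here carries an error between cultures.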

Other observations

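Genes outside the lists with ratios among the largest, chosen after their values were seen, were as follows. Duoxa2, the maturation factor of the hydrogen peroxide-producing dual oxidase, had 23 UMIs in 17 of the 349 cells and 13 UMIs in the 11695 cells with neither (ratio 59.3). Cybb, the catalytic subunit of the phagocyte NADPH oxidase, had 25 UMIs in 14 cells with both and 22 with neither (ratio 38.1). Haptoglobin, Hp, a haemoglobin-binding plasma protein that neutrophils and epithelia also make, had 36 and 14 UMIs (ratio 86.2). The flavin mono-oxygenase Fmo2 was at 252 CPM with both and 6.56 with neither (38.5-fold), the cytochrome Cyp2f2 at 120.3 and 3.48 (34.6-fold), the envelope protein gene Sprr2d at 426 and 6.67 (63.9-fold) and the surface antigen Psca at 160.5 and 4.05 (39.6-fold). Ifit1bl1 had 44 and 17 UMIs, 14 of the 44 in 1 cell. Each of these genes stood below the CPM minimum in cells with neither and passed it through the cells with both. By the rule used, each could therefore hardly be called anything but higher. Among the largest ratios in the other direction were the smooth muscle actin Acta2 at 28.7 CPM with both and 1055 with neither (36.8-fold lower) and the matrix gene Sparc at 34.4 and 417 (12.1-fold lower).

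Between cells with 1 of the transcripts, the arginase Arg1 stood at 241 CPM with Ltf only and 8.07 with Lcn2 only (ratio 29.9), but 24 of its 59 UMIs came from 1 cell. The metalloprotease Adam28 stood at 331 and 18.6 CPM (17.8-fold, 81 UMIs in 37 of 163 cells). Lower with Ltf only were the chemokine Ccl5 (2 and 169 UMIs) and the adhesion genes Icam1 (12.3 against 56.5 CPM, 3 and 91 UMIs) and Vcam1 (12.3 against 49.7 CPM, 3 and 80 UMIs).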
